A study of Mus musculus with 2 samples.

Results

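The 9 genes described here are effectors and gatekeepers of apoptosis, necroptosis and pyroptosis, namely the death receptor *Fas*, the kinases *Ripk1* and *Ripk3*, the necroptosis executor *Mlkl*, the caspase *Casp8*, the pyroptosis executor *Gsdmd*, and the BCL2 family genes *Bid*, *Bcl2l1* and *Mcl1*. They were chosen by name for their roles in cell death, and all 9 were found among the 24377 genes with a count in either liver sample. The tissue was liver of male C57BL/6J mice (C57BL/6 in the labels), 9 to 11 weeks old, that had been fasted for 10 h and then injected with acetaminophen (APAP) at 300 mg/kg. In the APAP + AZD7986 group the mice received AZD7986, an oral inhibitor of the lysosomal protease cathepsin C, at 5 mg/kg in 4 doses, the first 12 h before APAP, another at the time of APAP, and the last ones 12 h and 24 h later. In the APAP + vehicle group 4 vehicle doses took the place of the inhibitor, and both groups received the same dose of APAP. Livers were taken 30 h after APAP, RNA of 8 mice per group was pooled at equal shares, and each pool gave 1 library of 3′ end tags (MACE, a form of 3′ mRNA sequencing). The comparison asks how these genes differed between livers of inhibitor-treated and vehicle-treated mice. With 1 library per group it has no replicates, no test between the treatments can be run, and the intervals printed here cover counting error only and not variation between mice.

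As background, apoptosis, necroptosis and pyroptosis are regulated ways in which a cell dies. Death receptors such as Fas assemble a complex in which caspase-8 is activated. Active caspase-8 cleaves other caspases and Bid, and it also holds RIPK1 and RIPK3 in check, which otherwise phosphorylate MLKL so that it breaches the plasma membrane. At mitochondria, BCL-XL (encoded by *Bcl2l1*) and MCL1 restrain the pore proteins BAX and BAK, and hepatocytes are known to depend on both of these guards. Gasdermin D, encoded by *Gsdmd*, forms plasma membrane pores after cleavage by inflammatory caspases. Much of this control acts on proteins by cleavage, phosphorylation and degradation, to which a transcript count is blind. Acetaminophen itself kills hepatocytes mainly by mitochondrial damage and necrosis.

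The AZD7986 library held 6700838 counts over 21333 genes and the vehicle library 7657855 counts over 22411 genes. Counts were divided by size factors of 0.910 for the AZD7986 pool and 1.1 for the vehicle pool, which centre the 2 libraries on their typical gene. Every ratio divides the normalized count in the AZD7986 pool by the one in the vehicle pool, and square brackets hold its exact 95% counting interval. Levels are given as CPM, the count scaled to the library total. Hepatocyte markers, the check on the tissue label, were abundant, and the 8 genes of that list together made up 64511 CPM in the AZD7986 pool and 65671 CPM in the vehicle pool. In whole liver, fewer cells of a type and less RNA per cell cannot be told apart.

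Transcripts of both mitochondrial guards were lower in the AZD7986 pool than in the vehicle pool, while none of the receptor, kinase, caspase, MLKL or gasdermin genes had an interval that left out 1. *Bcl2l1* stood at 0.694 times its vehicle level [0.586 to 0.821] and *Mcl1* at 0.854 times [0.771 to 0.945]. The other 7 ratios lay between 0.603 for *Ripk3* and 1.01 for *Fas*, each with an interval that included 1. The guards were also the most counted members, with 608 summed counts for *Bcl2l1* and 1576 for *Mcl1*. *Ripk1* at 267 summed counts and *Ripk3* at 36 had lower ratios than *Mcl1*. Which members had an interval below 1 thus followed depth as well as ratio. Ratios were below 1 for 8 of the 9 genes, and their median log2 ratio was −0.21, against −0.02 over the 13523 genes tested, which are those whose counts in both pools sum to 20 or more. By count, 2 of the 9 genes (22.2%) had an interval below 1, while 15.1% of all genes tested did, so that this share taken alone does not set the 9 genes apart. No member had an interval above 1, which 17.9% of all genes tested had. No member reached a ratio of 0.5 or less or of 2 or more, steps taken by 3.72% and 2.23% of all genes tested.

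**Figure D1:**
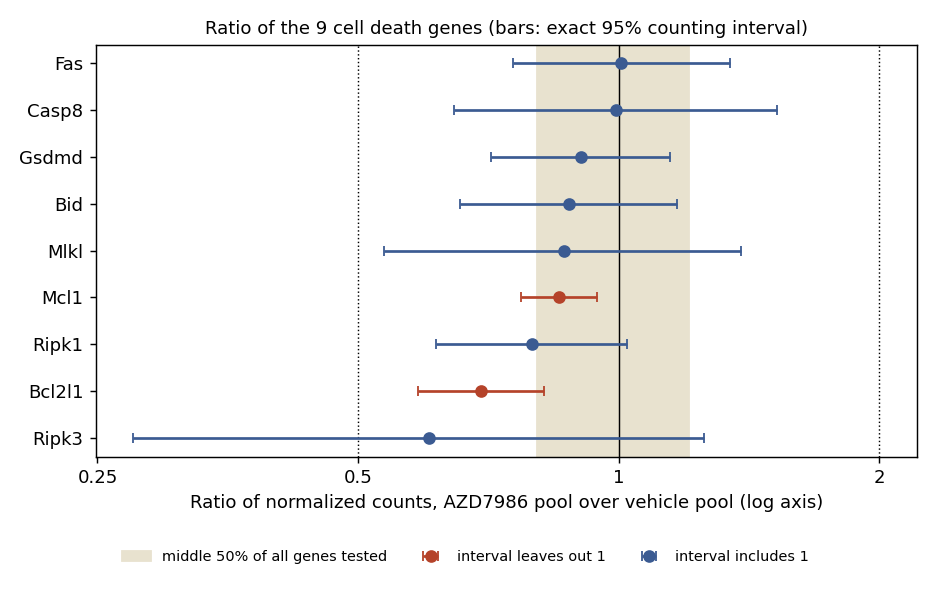
Ratio of normalized counts, AZD7986 pool over vehicle pool, for each of the 9 genes on a log axis, with exact 95% counting intervals as bars, the middle 50% of all genes tested as a band and dotted lines at 0.5 and 2. Only *Bcl2l1* (0.694) and *Mcl1* (0.854) have bars that end below 1, and the widest bar belongs to *Ripk3*, the gene with the fewest counts.

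The promoters of 4 BCL2 family genes are printed because the guards with lower counts are set beside the pore genes they hold in check. They are *Mcl1* and *Bcl2l1*, and *Bax* and *Bak1*, whose counts are given further on. Each is the RefSeq window in GRCm38.p6, running from 250 bases before to 50 bases after an annotated start site and read 5′ to 3′ along the gene. The windows are chr3:95658471-95658770 on the plus strand for *Mcl1*, chr2:152831679-152831978 on the minus strand for the most upstream of 3 starts of *Bcl2l1*, chr7:45466849-45467148 on the minus strand for *Bax*, and chr17:27028578-27028877 on the minus strand for *Bak1*. Capitals mark GC boxes.
Mcl1: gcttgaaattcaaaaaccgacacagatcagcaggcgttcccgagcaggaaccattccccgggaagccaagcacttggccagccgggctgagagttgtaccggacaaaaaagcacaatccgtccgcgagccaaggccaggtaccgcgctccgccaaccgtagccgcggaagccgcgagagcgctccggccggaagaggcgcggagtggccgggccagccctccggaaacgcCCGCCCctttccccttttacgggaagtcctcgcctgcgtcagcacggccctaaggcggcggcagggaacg
Bcl2l1: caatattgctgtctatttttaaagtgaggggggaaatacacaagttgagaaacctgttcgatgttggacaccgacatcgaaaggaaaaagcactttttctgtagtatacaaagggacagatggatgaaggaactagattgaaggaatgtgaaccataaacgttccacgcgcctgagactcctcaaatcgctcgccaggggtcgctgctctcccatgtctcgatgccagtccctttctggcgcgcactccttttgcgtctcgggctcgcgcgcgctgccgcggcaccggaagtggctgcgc
Bax: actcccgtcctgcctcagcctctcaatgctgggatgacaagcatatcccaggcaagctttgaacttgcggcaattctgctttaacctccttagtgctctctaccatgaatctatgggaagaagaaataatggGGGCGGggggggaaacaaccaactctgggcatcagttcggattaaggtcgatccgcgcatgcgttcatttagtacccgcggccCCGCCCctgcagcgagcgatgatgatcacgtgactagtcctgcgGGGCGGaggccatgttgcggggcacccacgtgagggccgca
Bak1: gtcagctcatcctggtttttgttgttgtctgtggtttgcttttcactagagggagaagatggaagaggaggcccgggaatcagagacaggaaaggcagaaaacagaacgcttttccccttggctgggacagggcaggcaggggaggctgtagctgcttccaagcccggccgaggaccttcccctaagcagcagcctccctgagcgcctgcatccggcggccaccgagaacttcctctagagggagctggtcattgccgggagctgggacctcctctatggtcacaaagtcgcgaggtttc

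The 6 motifs spelled out here were searched on both strands of these windows, as letters only and with no regard to whether a factor binds. The *Mcl1* window held 1 GC box (GGGCGG), and the *Bax* window held 3. None of the 3 *Bcl2l1* windows and not the *Bak1* window held any of the motifs. Among the other members, the *Fas* window held 1 STAT motif (TTCNNNGAA), 1 AP-1 motif (TGANTCA) and 2 GC boxes, and of the 2 *Ripk1* windows the first held 3 GC boxes and no STAT motif and the second held 2 STAT motifs and 4 GC boxes. *Bid* had 3 GC boxes, *Ripk3* 1 GC box, *Casp8* 1 CCAAT box (CCAAT) and *Mlkl* none of the 6. None of the 8 members searched held the CRE motif (TGACGTCA) or the kB motif (GGANTTTCC), and *Gsdmd* was not searched. Among all 32851 promoter windows of the same length, 35.7% held a GC box, 37.4% a CCAAT box, 8.30% a STAT motif, 7.81% an AP-1 motif, 1.79% a CRE motif and 1.25% a kB motif. The motifs do not overlap each other in these windows, and a match here is a description of letters only.

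*Bcl2l1* (ENSMUSG00000007659, chr2:152780668-152831728 on the minus strand) encodes BCL-XL, which binds BAX, BAK and BH3-only proteins at the outer mitochondrial membrane. It had 222 counts in the AZD7986 pool, against 386 counts in the vehicle pool. That is 33.1 CPM [28.9 to 37.8] in the AZD7986 pool and 50.4 CPM [45.5 to 55.7] in the vehicle pool, and these intervals do not overlap. Its log2 ratio was −0.53, and 14.1% of all genes tested had a lower ratio. The gene ranked 3388th in the AZD7986 pool and 2458th in the vehicle pool by count. The annotation lists 8 protein-coding transcripts for *Bcl2l1*. A shorter spliced product of the gene is known to promote rather than block apoptosis, and gene-level tags do not separate it from the protective form.

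*Mcl1* (ENSMUSG00000038612, chr3:95658788-95663176 on the plus strand) encodes the short-lived guard MCL1, which preferentially holds BAK and the BH3-only protein BIM. It was the most counted of the 9 genes, with 653 counts or 97.5 CPM [90.1 to 105] in the AZD7986 pool and 923 counts or 121 CPM [113 to 129] in the vehicle pool. These intervals do not overlap either, and the log2 ratio was −0.23. The difference was smaller than for *Bcl2l1*, and 31.3% of all genes tested had a lower ratio than *Mcl1*, so its ratio was not extreme among genes of this comparison. What sets its interval apart from 1 is its depth of 1576 summed counts. Both guards belong to the 3346 genes that reach 500 summed counts, of which 19.2% had an interval below 1 and 43.4% one above 1. In that well counted set the median log2 ratio was 0.11, above the ratios of both guards.

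Scaling bears on how these values read but not on their side of 1. The log2 ratio of *Bcl2l1* was −0.61 when scaled by library total and −0.80 without scaling, and that of *Mcl1* was −0.31 by library total and −0.50 without scaling. Both intervals stayed below 1 in each of these and at a 99% confidence level. The *Bcl2l1* ratio lay below that of *Mcl1* and below that of *Fas* when each pair was taken at 95%. Between *Mcl1* and *Bcl2l1* the ratio of ratios was 1.23 [1.01 to 1.5], and between *Fas* and *Bcl2l1* it was 1.45 [1.04 to 2.03]. After allowance for all 36 pairs of the 9 genes no pair stood apart, so the counts do not rank the members by response.

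**Figure D2:**
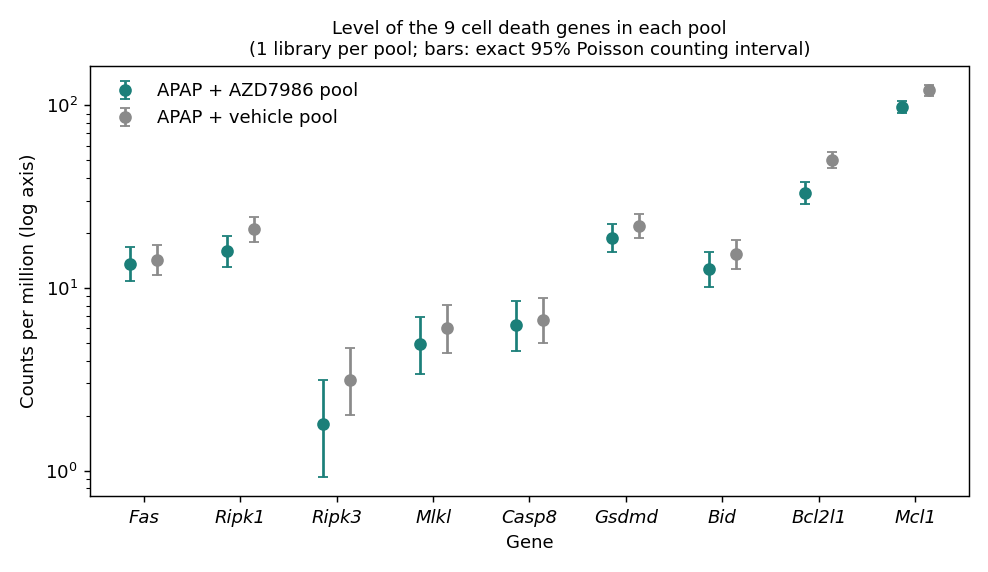
CPM on a log axis for each of the 9 genes in the AZD7986 pool (left point of each pair) and the vehicle pool (right point), 1 library each, with exact 95% Poisson counting intervals. The bars of *Bcl2l1* and *Mcl1* do not overlap between the pools, and levels run from under 4 CPM for *Ripk3* to 121 CPM for *Mcl1*.

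The same genes led the order of levels in both pools. A 3′ tag method yields about 1 count per transcript whatever the transcript length, so the CPM values were set beside each other without division by length. *Mcl1* made up 47.7% of the summed counts of the 9 genes in the AZD7986 pool [45 to 50.3] and 46.5% in the vehicle pool [44.3 to 48.7]. *Bcl2l1* made up 16.2% in the AZD7986 pool [14.3 to 18.3] and 19.4% in the vehicle pool [17.7 to 21.3]. *Mcl1* was 2.94 times as abundant as *Bcl2l1* in the AZD7986 pool [2.52 to 3.44] and 2.39 times in the vehicle pool [2.12 to 2.70]. The next 4 genes in the AZD7986 pool were *Gsdmd*, *Ripk1*, *Fas* and *Bid*, whose neighbours in that order did not differ beyond counting error. In the vehicle pool *Gsdmd* and *Ripk1* were likewise level, as were *Bid* and *Fas*, but *Ripk1* stood 1.38 times above *Bid* [1.08 to 1.76]. *Casp8* and *Mlkl* followed in both pools and could not be ordered between them. *Ripk3* was lowest in both.

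The guards were then set beside the rest of the BCL2 family, grouped by role. Of 7 protecting genes tested, 3 had an interval below 1 (*Mcl1*, *Bcl2l1* and *Bcl2a1d*), against 15.1% of all genes tested. None had one above 1, and the median log2 ratio was −0.51. *Bcl2l2*, which encodes the guard BCL-W, was the protecting gene with a ratio above 1, at 73 counts in the AZD7986 pool and 71 in the vehicle pool, a ratio of 1.24 [0.883 to 1.75]. The protein-coding gene *Gm20521* lies over the last exon of *Bcl2l2* on the same strand and could share its reads. Of the 3 pore genes, 2 had an interval above 1, against 17.9% of all genes tested. Lists this short were not tested against these shares. *Bax* had 229 counts in the AZD7986 pool and 219 in the vehicle pool, a ratio of 1.26 [1.04 to 1.53]. *Bak1* had 130 counts in the AZD7986 pool and 119 in the vehicle pool, a ratio of 1.32 [1.02 to 1.71]. Both intervals start just above 1, and under scaling by library total or at a 99% confidence level neither *Bax* nor *Bak1* had an interval above 1. The third pore gene *Bok* stood at 0.881 [0.716 to 1.08]. The last exon of *Bak1* is overlapped by *Ggnbp1* on the other strand, and with the strand setting of the counting not given their reads may not be fully separated.

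**Figure D3:**
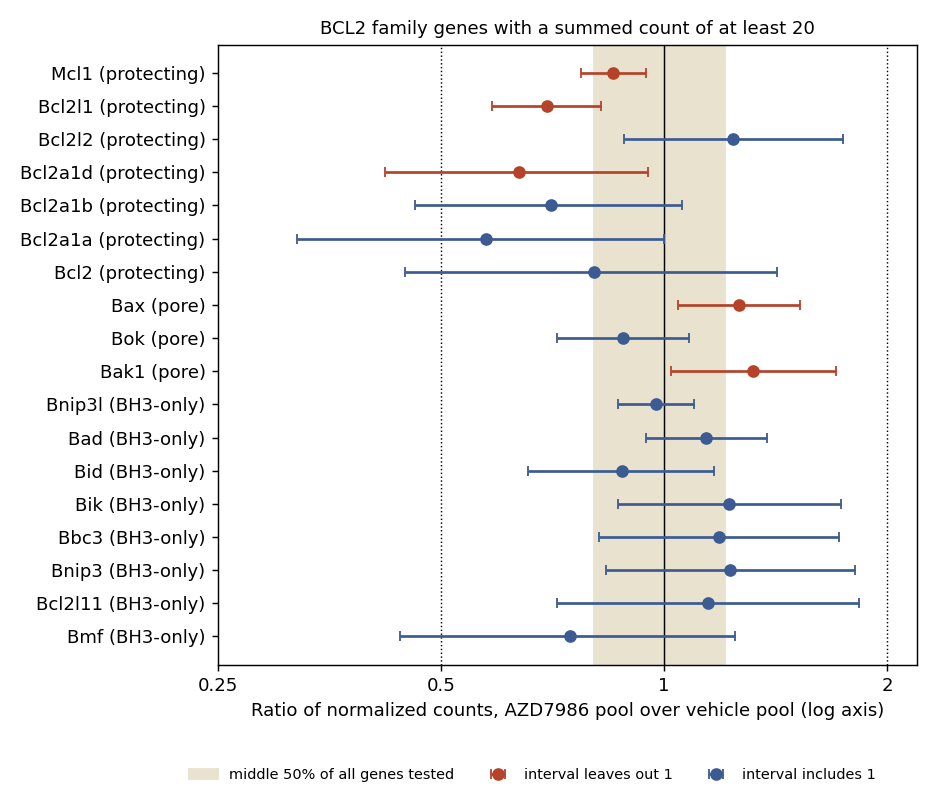
Ratio of normalized counts, AZD7986 pool over vehicle pool, on a log axis for the BCL2 family genes tested, with exact 95% counting intervals and the middle 50% of all genes tested as a band. The bars of *Mcl1*, *Bcl2l1* and *Bcl2a1d* end below 1, those of *Bax* and *Bak1* start above 1, and the BH3-only genes all span 1.

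Summed over the group, the protecting genes had 1068 counts in the AZD7986 pool and 1596 in the vehicle pool, a ratio of 0.808 [0.747 to 0.873]. The pore genes summed to 524 counts in the AZD7986 pool and 564 in the vehicle pool, a ratio of 1.12 [0.994 to 1.27]. Protecting counts were therefore 2.04 times the pore counts in the AZD7986 pool and 2.83 times in the vehicle pool. This quotient of counts needs no scaling between the libraries, and its AZD7986 value was 0.720 times its vehicle value [0.623 to 0.832]. Leaving out *Mcl1* gave 0.664, leaving out both *Mcl1* and *Bcl2l1* gave 0.724 [0.578 to 0.905], and leaving out *Bok* gave 0.630. The groups were summed with the values of their genes already known, so the quotient is a description of these 2 libraries.

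Part of the protecting group is made of *Bcl2a1* genes, which are mostly expressed in blood leukocytes and are near-identical copies among which reads may be split uncertainly. Their sum was 98 counts in the AZD7986 pool and 183 in the vehicle pool, a ratio of 0.646 [0.50 to 0.830]. Markers of neutrophils and monocytes differed in the same direction. Of 6 neutrophil markers tested 4 had an interval below 1, and the list summed to 46.7 CPM in the AZD7986 pool and 128 CPM in the vehicle pool. Of its defining genes *Elane* had 0 counts in the AZD7986 pool and *Ly6g* had 0 in the vehicle pool, and either had at most 3 in the other pool. Markers of monocytes and infiltrating macrophages summed to 313 CPM in the AZD7986 pool and 412 CPM in the vehicle pool, with 4 of 8 below 1. Kupffer cell markers had 3 of 6 intervals above 1 and 1 below, and the 1 T and NK cell marker and 2 B cell markers with enough counts had intervals that included 1. *Mcl1* and *Bcl2l1* are expressed by leukocytes as well as by hepatocytes, and the part of these cells in their ratios was not tested. Without the *Bcl2a1* genes the protecting over pore quotient was still 0.739 times its vehicle value [0.638 to 0.856], while the median log2 ratio of the protecting list was −0.27.

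*Bid* (ENSMUSG00000004446, chr6:120891930-120916853 on the minus strand) links the death receptors to mitochondria, because caspase-8 cleaves it into a fragment that activates BAX and BAK. It had 85 counts in the AZD7986 pool and 117 in the vehicle pool, equal to 12.7 CPM in the AZD7986 pool and 15.3 CPM in the vehicle pool. Its ratio was 0.877 [0.655 to 1.17], and a difference of this size was not detectable at this depth. *Bid* sat among BH3-only genes of which none of the 8 tested had an interval that left out 1, with a list median of 0.19 on the log2 scale. The most counted of them were *Bnip3l*, a mitophagy receptor, with a ratio of 0.975 [0.866 to 1.1], and *Bad*, with 1.14 [0.945 to 1.38]. The BH3-only genes together had a ratio of 1.03 [0.952 to 1.12], and the protecting over BH3-only quotient was 0.988 in the AZD7986 pool and 1.26 in the vehicle pool.

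Transcripts that act on MCL1 protein were also examined, because MCL1 is rapidly degraded and its level need not follow *Mcl1* counts. Of the 5 genes tested, *Huwe1*, a ubiquitin ligase for MCL1, was lower at 0.784 [0.667 to 0.920], and *Usp9x*, a deubiquitinase that stabilizes MCL1, was higher at 1.34 [1.06 to 1.69]. That is 1 of 5 below 1 and 1 above 1, against 15.1% and 17.9% of all genes tested. The *Usp9x* interval included 1 at a 99% confidence level and without scaling. *Dusp6* stood at 0.861 [0.714 to 1.04], with an interval below 1 by library total. Protein was not measured in these libraries.

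*Fas* (ENSMUSG00000024778, chr19:34290666-34327772 on the plus strand) encodes the receptor for Fas ligand, to which hepatocytes are known to be highly sensitive. It had 91 counts in the AZD7986 pool and 109 in the vehicle pool, or 13.6 CPM [10.9 to 16.7] in the AZD7986 pool and 14.2 CPM [11.7 to 17.2] in the vehicle pool. The ratio of 1.01 [0.754 to 1.34] was the highest of the 9 genes, and its interval extended to either side of 1 by similar factors. By library total its log2 ratio was −0.07, and with size factors from well counted genes it was −0.0027, so its side of 1 depends on scaling. Its ligand *Fasl* had 0 counts in the AZD7986 pool and 1 in the vehicle pool, too few for a ratio. Over all genes tested, 15.1% had an interval below 1 and 17.9% had one above 1. In the list of death receptors and ligands, 1 of 9 genes tested had an interval below 1 and 1 had an interval above 1. These were *Tnfrsf1b*, the leukocyte-rich TNF receptor 2, with 71 counts in the AZD7986 pool and 137 in the vehicle pool, a ratio of 0.625 [0.463 to 0.839], and *Ltbr*, the lymphotoxin beta receptor, with a ratio of 1.15 [1.04 to 1.28]. By library total the *Ltbr* interval included 1, and without scaling its ratio was below 1. *Tnfrsf1a*, the death domain receptor for TNF, had a ratio of 1.1 [0.974 to 1.23].

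*Casp8* (ENSMUSG00000026029, chr1:58795374-58847503 on the plus strand), the initiator caspase of the receptor complex, differed as little as *Fas*. It had 42 counts in the AZD7986 pool and 51 in the vehicle pool, equal to 6.27 CPM in the AZD7986 pool and 6.66 CPM in the vehicle pool, and a ratio of 0.994 [0.645 to 1.53]. None of the 9 caspase genes tested had an interval that left out 1. *Cflar*, whose product c-FLIP pairs with caspase-8 and blocks it, had a ratio of 0.971 [0.854 to 1.1].

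Among the 25 adaptors and brakes of the receptor complex, 3 had an interval below 1 and 1 above 1. The shares over all genes tested were 15.1% below 1 and 17.9% above 1. *Xiap*, an inhibitor of apoptosis, had 380 counts in the AZD7986 pool and 588 in the vehicle pool, a ratio of 0.780 [0.684 to 0.889]. *Tbk1* and *Tab2*, which take part in a kinase checkpoint on RIPK1 and in TAK1 activation, had ratios of 0.746 [0.571 to 0.972] and 0.767 [0.627 to 0.937]. *Otulin*, a deubiquitinase that trims linear ubiquitin chains, had 316 counts in the AZD7986 pool and 269 in the vehicle pool, a ratio of 1.42 [1.20 to 1.67], and *Ank* lies over its last exon on the other strand. The list as a whole had a median log2 ratio of −0.02, the same as all genes tested. Of the 9 apoptosome and execution genes tested *Xiap* was again the one with an interval that left out 1, and *Cycs*, which encodes cytochrome c, stood at 1.1 [0.996 to 1.21].

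The 3 necroptosis members had ratios below 1, and none of their intervals left out 1. *Ripk1* (ENSMUSG00000021408, chr13:34002363-34037147 on the plus strand), a kinase and scaffold below TNF receptor 1, had 106 counts in the AZD7986 pool and 161 in the vehicle pool. This equals 15.8 CPM [13.0 to 19.1] in the AZD7986 pool and 21 CPM [17.9 to 24.5] in the vehicle pool, and the intervals overlap. Its ratio was 0.795 [0.616 to 1.02], the closest to a call among the 7 genes that had none. Scaled by library total its interval fell below 1, which made 3 of the 9 genes. That scaling shifts every log2 ratio by −0.079, and more of all genes tested then had an interval below 1 as well. The added gene therefore does not by itself set the members apart. The pseudogene *Gm17084* lies within the last exon of *Ripk1* on the same strand and could share its reads.

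*Ripk3* (ENSMUSG00000022221, chr14:55784995-55788865 on the minus strand), the kinase that phosphorylates MLKL, had 12 counts in the AZD7986 pool and 24 in the vehicle pool. The levels were 1.79 CPM [0.925 to 3.13] in the AZD7986 pool and 3.13 CPM [2.01 to 4.66] in the vehicle pool. Its ratio of 0.603 was the lowest of the 9 genes and the least certain, with an interval of 0.275 to 1.25 that holds both a ratio under 0.5 and a ratio above 1. *Mlkl* (ENSMUSG00000012519, chr8:111311797-111338177 on the minus strand), which ruptures the plasma membrane once phosphorylated, had 33 counts in the AZD7986 pool and 46 in the vehicle pool. Its levels were 4.92 CPM in the AZD7986 pool and 6.01 CPM in the vehicle pool, with a ratio of 0.866 [0.536 to 1.38]. Of the 9 genes only *Ripk3* had an interval that reached down to 0.5, and none reached up to 2, so that a doubling lies outside the counting error of every member.

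Of 13 necroptosis genes tested, 4 had an interval below 1 and 2 above 1, against 15.1% and 17.9% of all genes tested. This list was not tested against these shares. *Zbp1*, the nucleic acid sensor that can engage RIPK3 directly, had 67 counts in the AZD7986 pool and 134 in the vehicle pool, a ratio of 0.603 [0.443 to 0.815]. *Pgam5*, a mitochondrial phosphatase, had 86 counts in the AZD7986 pool and 168 in the vehicle pool, a ratio of 0.618 [0.471 to 0.806], and 2 noncoding genes lie over its last exon on the other strand. Also below 1 were the ESCRT component *Chmp4b*, at 0.859 [0.758 to 0.973], and the ESCRT-linked *Pdcd6ip*, at 0.842 [0.735 to 0.963]. The genes above 1 were *Chmp2a*, another component of the ESCRT membrane repair machinery, at 1.35 [1.21 to 1.5], and *Ppm1b*, a phosphatase known to act on RIPK3, at 1.27 [1.12 to 1.44]. *Hsp90aa1*, a chaperone of RIPK3 and MLKL, was the most counted and stood at 1.09 [0.997 to 1.18]. The list median was −0.21 on the log2 scale, and at a 99% confidence level 2 rather than 4 of its genes had an interval below 1. At that level 1293 of the 13523 genes tested did, in place of 2045.

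*Gsdmd* (ENSMUSG00000022575, chr15:75862327-75867408 on the plus strand) had 126 counts in the AZD7986 pool and 168 in the vehicle pool. Its levels were 18.8 CPM [15.7 to 22.4] in the AZD7986 pool and 21.9 CPM [18.7 to 25.5] in the vehicle pool, with a ratio of 0.905 [0.713 to 1.15]. The pools were not told apart for *Gsdmd* at this depth. Among 15 pyroptosis genes tested, *Il1b*, the cytokine released through gasdermin pores, had the lowest ratio, at 14 counts in the AZD7986 pool and 46 in the vehicle pool or 0.367 [0.186 to 0.680]. *Il1b* was the single gene at 0.5 or less among the 100 other pathway genes tested, against 3.72% of all genes tested. Leukocytes are its main source in liver, and the neutrophil and monocyte marker sums given above were lower too. The part of these cells in the *Il1b* ratio was not tested. *Il18* was higher, at 140 counts in the AZD7986 pool and 119 in the vehicle pool, a ratio of 1.42 [1.1 to 1.83]. *Ninj1*, which completes membrane rupture after gasdermin pores form, was the most counted gene of the list and stood at 1.11 [1.04 to 1.20]. By library total the *Ninj1* interval included 1, and without scaling it lay below 1. *Nek7*, a partner of the NLRP3 inflammasome, stood at 0.854 [0.718 to 1.01]. By library total 3 pyroptosis genes had an interval below 1 in place of 1, *Nek7* among them, and 1 had one above 1 in place of 2.

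**Figure D4:**
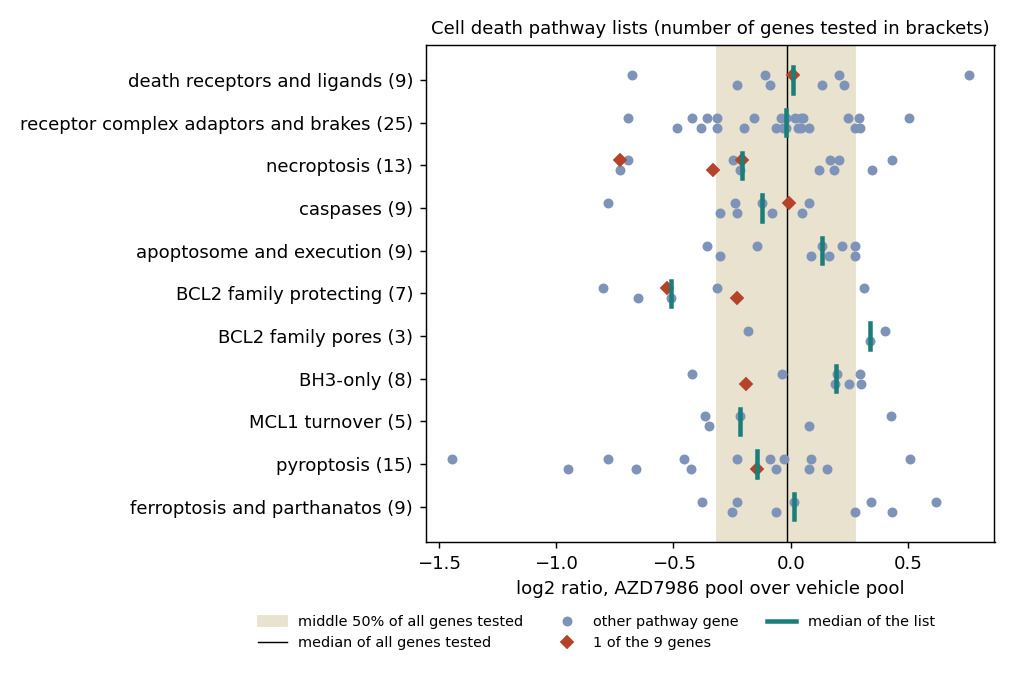
The log2 ratio, AZD7986 pool over vehicle pool, of every gene tested in the 11 cell death lists, with list medians as upright marks, the 9 genes as diamonds and the middle 50% of all genes tested as a band. The protecting BCL2 list has its median at −0.51, the pore list at 0.34, and the other lists have medians inside the band.

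Over all lists, 114 pathway genes other than the 9 were listed, 110 were in the table and 100 were tested. Of these 14% had an interval below 1, against 15.1% of all genes tested, and 11% had one above 1, against 17.9% of all genes tested. Their median log2 ratio was −0.03, against −0.02 over all genes tested. Genes of ferroptosis and parthanatos, set beside the 9 for contrast, included *Gpx4*, the enzyme that clears lipid peroxides, at 1.27 [1.19 to 1.35] and *Aifm2*, which encodes the ferroptosis suppressor FSP1, at 1.54 [1.19 to 1.98]. The protein-coding gene *H2afy2* lies over the last exon of *Aifm2* on the other strand. In that list *Acsl4*, which feeds polyunsaturated lipids into membranes, stood at 0.852 [0.757 to 0.959], *Ncoa4* at 0.770 [0.659 to 0.898] and *Mif* at 0.839 [0.767 to 0.918]. Its median log2 ratio was 0.01.

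**Figure D5:**
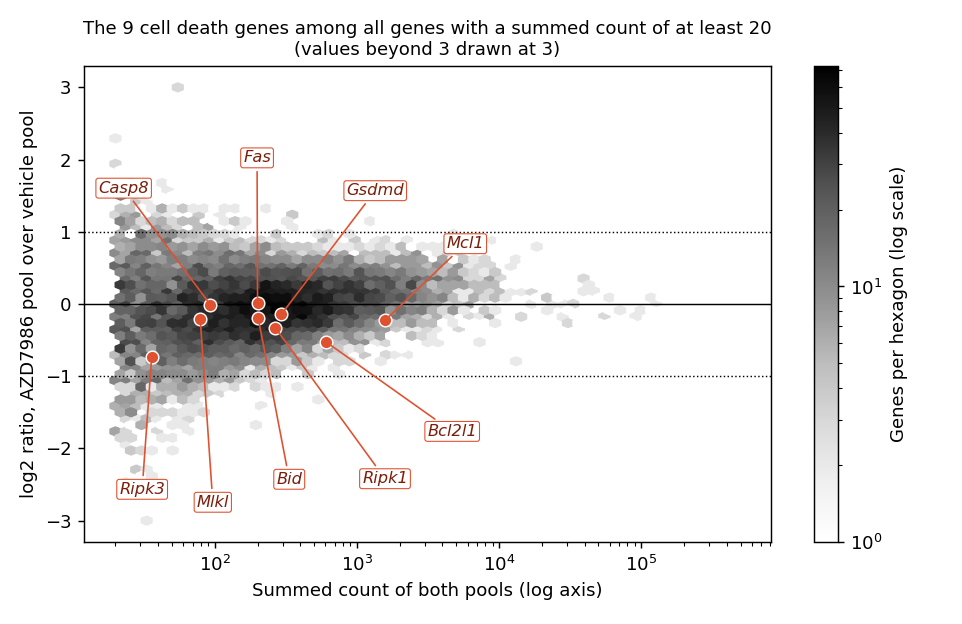
The log2 ratio, AZD7986 pool over vehicle pool, against the summed count of both pools (log axis) for the 13523 genes tested, shaded by genes per hexagon, with the 9 genes marked and dotted lines at a ratio of 0.5 and 2. All 9 lie between these lines, with *Ripk3* at the shallow end and *Mcl1* at the deep end of their counts.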

How the data were processed

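Per the labels and the study's methods, hepatic RNA was pooled per group and sequenced from 3′ ends (MACE). The authors removed duplicates by molecular identifiers, trimmed with cutadapt, clipped poly(A) tails, mapped reads to mm10 and counted them with HTSeq. The aligner, annotation release, strand setting and tool versions count as not given in the sources used here. The labels name the MACE-kit v.2, whereas for liver the methods name the Rapid MACE-Seq kit. Both libraries carry the same treatment text in the labels, so the groups come from the sample titles. The deposited table holds raw counts, values headed TPM that equal CPM with no length term (largest relative difference 5.8e-16), and a scaled signal that the authors made by dividing counts by DESeq2 size factors, left blank for 3383 genes. It holds 6 further columns of samples not listed here, which were not used.

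DESeq2 1.42.0 (R 4.3.3) gave the size factors, and ratios and exact (Clopper-Pearson) intervals with Python 3.11.15, numpy 2.4.6, scipy 1.17.1 and pandas 2.3.3. Figures were drawn with matplotlib 3.10.9. A gene counts as tested at a summed count of at least 20, a count of 0 was set to 1 before ratios were formed, and intervals for the 36 gene pairs were widened to a family-wise level. Entries without a gene symbol held 3.71% of counts in the AZD7986 pool and 3.70% in the vehicle pool and were kept. Coordinates come from GENCODE M21 (23215 of 24377 identifiers found) and promoters from RefSeq in GRCm38.p6 (8 of the 9 genes matched). The members, the 11 pathway lists, the 10 marker lists and the tests were chosen with earlier results of these data known. Named from each list are the 2 most counted genes and up to 3 others with the largest ratio whose interval leaves out 1, apart from some genes that are not reported here. Each list keeps those of the 9 genes that belong to it. *Fasl*, *Elane*, *Ly6g*, *Htra2*, *Stub1*, *Nlrp3*, *Chmp4b*, *Pdcd6ip*, *Cyp1a2*, *Cyp2e1*, *Krt7* and *Krt19* were named after their values were seen. The scripts were tested on simulated data. Alternatives were TMM from edgeR 4.0.16, library total, no scaling, other minimum counts, other intervals and 0.5 added to scaled counts.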

Additional observations from a re-analysis of the deposited data

How the results depend on the processing

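With 1 library per pool, none of these choices addresses variation between mice, and a gene with few counts such as *Ripk3* is limited by counting error first. The log2 ratios of all 9 genes kept their values within counting error under TMM, library total and size factors from well counted genes, apart from the side of 1 of *Fas*, which changed by library total and with size factors from well counted genes. TMM shifted every log2 ratio by 0.0017, library total by −0.079 and no scaling by −0.27. By library total, more of all genes tested had an interval below 1 and fewer had one above 1. The list counts given by library total carry this shift too. Without scaling, 5 of the 9 genes had an interval below 1 in place of 2, and 1 gene was at 0.5-fold or less in place of 0. Over the 13523 genes tested, 4914 had an interval below 1 in place of 2045. At 0.5-fold or less were 1081 of them in place of 503. Without scaling, the hepatocyte marker median turned to −0.11 and the Kupffer cell marker median to −0.057. With a 95% interval for each pair alone, 2 of 36 pairs stood apart in place of 0. Among all genes tested, 846 had an interval above 1 without scaling, in place of 2420. Without scaling, *Otulin*, *Il18*, *Ppm1b*, *Gpx4* and *Aifm2* no longer had an interval above 1. At a 99% confidence level 1293 of all genes tested were below 1, and *Tbk1* and *Bcl2a1d* no longer were. Leaving out genes of the BCL2 groups (chosen after seeing the data) kept each quotient below 1. No paired analysis was possible because each group has 1 library.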

Other observations

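Markers of other cell types in the same livers differed between the pools in several directions. Of all genes tested, 15.1% had an interval below 1 and 17.9% had one above 1. Pericentral hepatocyte genes, which mark the zone where APAP is activated, had a median log2 ratio of 0.96, with 4 of 6 tested above 1 and 1 below. The gene below 1 was *Cyp1a2*, which the paper names among the enzymes that activate APAP, at 0.894 [0.820 to 0.975]. *Cyp2e1*, which the paper names beside it, was among the 4 above 1, at 2.42 [2.31 to 2.54]. Cholangiocyte genes had a median of −1.49, with 3 of 5 below 1. The keratin genes of that list were not among these, and *Krt7* had 14 counts in either pool. *Krt19* had 5 counts in the AZD7986 pool and 17 in the vehicle pool. Its ratio was 0.355 [0.102 to 1.002], with an interval that only just included 1. By library total 4 of the 5 cholangiocyte genes had an interval below 1. Sinusoidal endothelial genes had a median of −0.42, with 3 of 6 below 1 and 1 above. Kupffer cell genes had a median of 0.21, with 3 of 6 above 1 and 1 below. The share of mitochondrial transcripts was 7.74% in the AZD7986 pool and 9.17% in the vehicle pool.

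A few cell death genes had counts near 0 although they are widely expressed. *Htra2*, a mitochondrial protease, had 0 counts in the AZD7986 pool and 2 in the vehicle pool, and *Loxl3* lies over its last exon on the other strand. *Stub1*, a ubiquitin ligase, had 0 counts in the AZD7986 pool and 1 in the vehicle pool, and *Jmjd8* lies over its last exon on the other strand. Whether overlap in the counting lowered these values was not tested. *Nlrp3*, an inflammasome sensor, had 1 count in the AZD7986 pool and 11 in the vehicle pool, a ratio of 0.110 [0.0025 to 0.755], below the summed count of 20 used above.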
